A study of Mus musculus with 2 samples.

Results

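Epithelial sheets are kept as such by a small group of regulators, and 10 of their genes were read in cells sorted from the mouse otocyst, the epithelial vesicle that forms the inner ear. The set comprises the splicing regulators Esrp1 and Esrp2, the Grainyhead-like transcription factors Grhl1, Grhl2 and Grhl3, the Ovo-like zinc finger factors Ovol1 and Ovol2, the Ets factors Elf3 and Ehf, and the Krüppel-like factor Klf5. The rule lists the genes by name and sets no threshold on a signal, but the list was drawn up with earlier results of these data known. They are 10 of 18194 genes that at least 1 probe set of the array names alone, and 20 probe sets name them.

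RNA came from embryos at E10.5, embryonic day 10.5, heterozygous for the transgene Tg(ETAR-EGFP)14Imeg, which is carried by both populations. Otocysts were dissociated with trypsin, and the cells, labelled as epithelial, were sorted by green fluorescence into an EGFP-positive (EGFP+) and an EGFP-negative (EGFP-) population. According to the labels, EGFP lies mostly in ventral and dorsomedial otocyst and is missing dorsolaterally. The comparison sets these territories against each other only together with any other cells in either library, whose markers are given below. Each population was hybridised to 1 Affymetrix array, and the sources used here do not say how many embryos went into each.

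Proteins of the ESRP family bind RNA and favour the epithelial splice forms of their targets, among them the fibroblast growth factor receptor Fgfr2. Grainyhead-like and Ovo-like factors act on transcription: Grhl2 activates adhesion and tight junction genes such as Cdh1 and Cldn4, and Ovol2 represses Zeb1. The opposing side is formed by factors of epithelial-to-mesenchymal transition (EMT), among which Zeb and Snai proteins bind E-boxes in promoters of epithelial genes and repress them. In humans, mutations of GRHL2 and of ESRP1 cause hearing loss.

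The values are MAS5 signals, a linear intensity for each probe set. Signals at or below the 40th percentile of an array were set to that floor, 10.4 for EGFP+ and 12.4 for EGFP- cells. The highest of 27 bacterial control probe sets without evident signal reached 12.3 on the EGFP+ and 9 on the EGFP- array. Where several probe sets named a gene, the brightest on average stands for it, and the ratio is EGFP+ over EGFP-. If 1 of both values lay at the floor, the fold is a minimum ("at least"), and a gene at the floor on both sides was not measured. A 2-fold difference, 1 on the log2 scale, served as the limit for counts. With 1 array per population there was no replicate and no test, so all statements describe these 2 libraries. As a partial technical error, the log2 ratio varied between probe sets of 1 gene with an SD of 0.41 at mean signals up to 50 (951 genes), 0.33 between 50 and 200 (2763 genes) and 0.25 above 200 (1926 genes). Signals of different probe sets are not comparable as levels, so each gene is compared only with itself.

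Promoter sequences show which binding letters lie at the start of these genes, and RefSeq windows on GRCm38.p6 were at hand for 4 of the 10, namely Grhl1, Ovol2, Grhl3 and Elf3. Each window runs from 250 bases before to 50 bases after an annotated start, 5′ to 3′ on the gene's strand. Grhl1 has 2 annotated starts. Capitals mark the E-box CACCTG (on the other strand CAGGTG), the hexamer bound by Zeb and Snai repressors.
Grhl1, first start, chr12:24572037-24572336, plus strand: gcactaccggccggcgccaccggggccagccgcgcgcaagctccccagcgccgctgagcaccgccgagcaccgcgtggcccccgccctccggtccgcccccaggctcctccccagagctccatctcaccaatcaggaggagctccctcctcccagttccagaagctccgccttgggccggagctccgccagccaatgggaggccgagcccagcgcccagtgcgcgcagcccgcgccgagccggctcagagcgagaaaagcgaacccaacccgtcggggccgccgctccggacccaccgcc
Grhl1, second start, chr12:24580469-24580768, plus strand: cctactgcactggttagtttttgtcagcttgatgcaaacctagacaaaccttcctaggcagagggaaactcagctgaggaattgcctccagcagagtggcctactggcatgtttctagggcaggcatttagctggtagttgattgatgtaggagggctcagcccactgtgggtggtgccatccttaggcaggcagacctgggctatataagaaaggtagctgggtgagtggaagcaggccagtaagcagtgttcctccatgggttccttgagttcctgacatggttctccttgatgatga
Ovol2, chr2:144331313-144331612, minus strand: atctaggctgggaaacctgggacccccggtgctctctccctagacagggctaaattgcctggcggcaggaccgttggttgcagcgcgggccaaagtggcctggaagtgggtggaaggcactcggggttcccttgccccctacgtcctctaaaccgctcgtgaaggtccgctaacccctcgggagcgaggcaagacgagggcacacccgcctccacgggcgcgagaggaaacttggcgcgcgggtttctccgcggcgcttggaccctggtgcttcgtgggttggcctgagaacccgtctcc
Grhl3, chr4:135573583-135573882, minus strand: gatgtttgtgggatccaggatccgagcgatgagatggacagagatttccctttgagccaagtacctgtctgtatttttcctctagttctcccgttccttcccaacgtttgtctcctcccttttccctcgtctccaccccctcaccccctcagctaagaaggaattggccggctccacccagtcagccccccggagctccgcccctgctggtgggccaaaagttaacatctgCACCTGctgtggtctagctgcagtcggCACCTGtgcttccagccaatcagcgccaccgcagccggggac
Elf3, chr1:135258423-135258722, minus strand: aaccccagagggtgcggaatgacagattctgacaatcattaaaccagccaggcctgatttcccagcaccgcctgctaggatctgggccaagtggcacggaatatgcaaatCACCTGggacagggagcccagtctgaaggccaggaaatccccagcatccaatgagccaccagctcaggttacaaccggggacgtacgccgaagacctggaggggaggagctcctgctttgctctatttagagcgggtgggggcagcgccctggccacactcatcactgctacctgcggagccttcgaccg

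The windows of Grhl1 and Ovol2, both with higher signals in EGFP+ cells as given below for each, hold no CACCTG. That of Grhl3 holds the hexamer at -19 and at 8 relative to the start, and that of Elf3 at -140. Among all 27025 genes with a window, 22.6% hold it in at least 1 window. The letters are a description of the sequence, and binding was not measured.

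Markers of cells other than otic epithelium were found in the EGFP- library. Of 12 markers of periotic mesenchyme, 10 were at least 2-fold higher in EGFP- cells, and their summed signal was 503.9 in EGFP+ and 6399 in EGFP- cells. All 7 measured erythroid markers (2990 in EGFP+ and 21183 in EGFP- cells), all 7 of endothelium (67.9 in EGFP+ and 456.3 in EGFP- cells), all 6 of leukocytes (95.3 in EGFP+ and 1280 in EGFP- cells), all 7 of hindbrain neuroepithelium (114.8 in EGFP+ and 2630 in EGFP- cells) and all 4 of neural crest and glia (40.2 in EGFP+ and 615.6 in EGFP- cells) were also at least 2-fold higher in EGFP- cells. The label otocyst epithelium was met in both libraries by otic markers, whose summed signal was 5430 in EGFP+ and 3613 in EGFP- cells. Of 11 otic markers, 6 were at least 2-fold higher in EGFP+ cells and 1 in EGFP- cells. Oc90, an otoconial gene, had 939.8 in EGFP+ and 1406 in EGFP- cells, and Eya1 had 1665 in EGFP+ and 578.3 in EGFP- cells. No marker was listed at 0.

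Of the 10 genes, 9 were measured, and 4 of these (Esrp1, Esrp2, Grhl2 and Ovol2) had signals at least 2-fold higher in EGFP+ cells. Past 2-fold towards EGFP- cells there was none. Over all 13363 measured genes, 2.9% were at least 2-fold higher in EGFP+ cells and 7.63% at least 2-fold higher in EGFP- cells. The log2 ratio was above 0 for 7 of the 9, against 50.2% of all measured genes. The median log2 ratio of the 9 was 0.71, beside 0.0032 for all measured genes. In bulk RNA, fewer epithelial cells in the EGFP- library and less of each transcript per cell cannot be told apart, and the part of other cells in the ratios of Esrp1, Esrp2, Grhl2, Ovol2 was not tested. Both populations derive from 1 transgenic line, and the pair of libraries cannot show how the values vary between embryos.

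**Figure D1:**
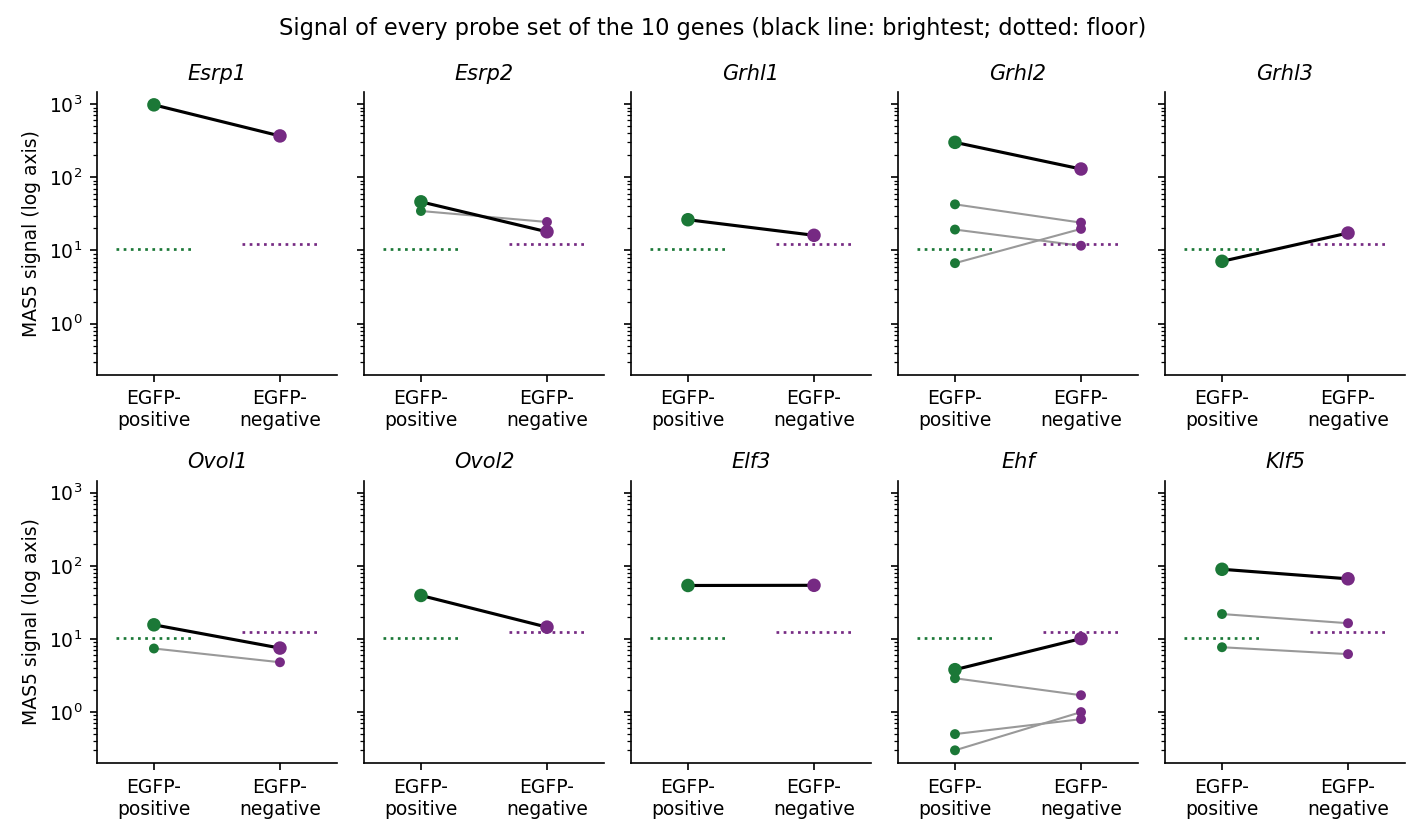
MAS5 signal (log axis) of all 20 probe sets of the 10 genes in the EGFP+ (green) and EGFP- (purple) library; lines join the values of 1 probe set, black for the brightest, and dotted lines mark each array's floor. The lines of Esrp1 and Grhl2 run well above the floor and slope down towards EGFP- cells, Elf3 is level at 53.8 in EGFP+ and 54.1 in EGFP- cells, and every point of Ehf lies below the floor.

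Both ESRP genes had higher signals in EGFP+ cells. Esrp1, the main epithelial splicing regulator, had a signal of 978.5 in EGFP+ and 367.8 in EGFP- cells, a log2 ratio of 1.41. It lies far above the floor in both libraries, and only 1.17% of measured genes had a ratio as high. The ratio is 5.67 times the SD between probe sets at this signal, but Esrp1 has a single probe set. Esrp2, its close paralogue with overlapping targets, had 46.2 in EGFP+ and 18 in EGFP- cells, a log2 ratio of 1.36. Its other probe set, whose name marks it as shared with related transcripts, gave 34.6 in EGFP+ and 24.5 in EGFP- cells, a log2 ratio of 0.50. The 2 probe sets thus share the direction, and 1 of them passes 2-fold. A floor at the 60th percentile gave Esrp2 a log2 ratio of at least 0.30, a pseudocount of 16 in place of a floor gave 0.87, and the median over its probe sets was 0.93, each within the limit.

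The 3 Grainyhead-like genes differed among themselves. Grhl2, the family member that activates Cdh1 and claudin genes, had a signal of 300.5 in EGFP+ and 129.8 in EGFP- cells, a log2 ratio of 1.21. A second probe set had 42.7 in EGFP+ and 24 in EGFP- cells, and another had 19.3 in EGFP+ and 11.6 in EGFP- cells, the last value at the floor. Their log2 ratios were 0.83 and at least 0.64, in the same direction and within 2-fold. The remaining one went the other way with 6.7 in EGFP+ and 19.7 in EGFP- cells, at least 1.89-fold higher in EGFP- cells, since the EGFP+ value is at the floor. The direction of Grhl2 thus rests on the 3 brighter of its 4 probe sets, and the median over all 4 was 0.73, within 2-fold.

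Grhl1, which in mouse skin acts on desmosomal cadherin genes, had 26.3 in EGFP+ and 16.1 in EGFP- cells. The log2 ratio of 0.71 is 1.72 times the SD between probe sets at this signal and within the 2-fold limit. Grhl3, a factor of epidermal barrier formation and neural tube closure, had 7.1 in EGFP+ cells, at the floor, and 17.3 in EGFP- cells, at least 1.66-fold higher in EGFP- cells. Grhl3 is the measured gene of the set with the highest ratio towards EGFP- cells, and it is dim in both libraries.

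The Ovo-like genes had low signals. Ovol2, which represses Zeb1 and holds cells in the epithelial state, had 39.3 in EGFP+ and 14.5 in EGFP- cells. Its log2 ratio of 1.44 was the highest of the set, with 1.1% of measured genes as high. The EGFP- value lies next to the floor: raising the floor to the 60th percentile left a log2 ratio of at least 0.07, and with a pseudocount of 16 it was 0.86. Ovol1, a factor of epidermal and germ cell differentiation, had 15.6 in EGFP+ cells and 7.5 in EGFP- cells, at the floor, and was at least 1.26-fold higher in EGFP+ cells, with a log2 ratio of 1.06 once the floor was lowered to the 20th percentile. Its second probe set was at the floor in both libraries, with 7.4 in EGFP+ and 4.8 in EGFP- cells.

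The Ets and Krüppel-like factors stood nearer to equality. Elf3, an Ets factor of simple epithelia such as the gut lining, had 53.8 in EGFP+ and 54.1 in EGFP- cells, a log2 ratio of -0.0080. Klf5, a factor of proliferating epithelia, had 89.6 in EGFP+ and 66.4 in EGFP- cells, a log2 ratio of 0.43. Its second probe set had 21.9 in EGFP+ and 16.4 in EGFP- cells, a log2 ratio of 0.42, and the remaining one was at the floor in both libraries, with 7.7 in EGFP+ and 6.2 in EGFP- cells. Both measured Klf5 probe sets thus gave nearly the same ratio, 1.32 times the SD between probe sets for the brighter one. Ehf, an Ets factor of glandular and airway epithelia, was at the floor in all 4 probe sets, with signals of 0.3 to 3.8 in EGFP+ and 0.8 to 10.1 in EGFP- cells. No ratio is given for it.

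**Figure D2:**
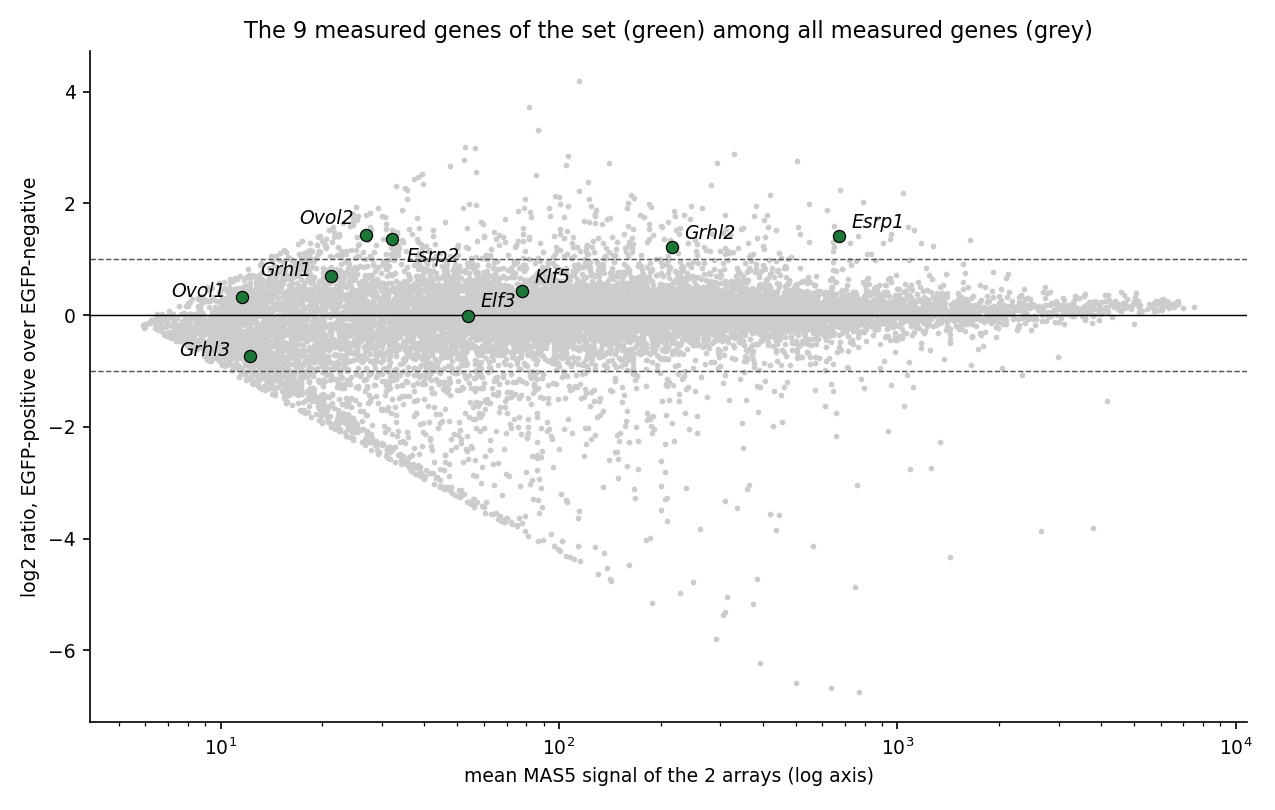
Log2 ratio of signal, EGFP+ over EGFP-, against mean signal (log axis) for all 13363 measured genes (grey) and the 9 measured genes of the set (green); dashed lines mark 2-fold. Esrp1 and Grhl2 lie in the bright range, Ovol2 and Esrp2 lie past 2-fold close to the dim edge, and Elf3 lies on 0.

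Genes known to be acted on by these factors, or to build epithelial junctions and surfaces, were read from a list of 32 effector genes, of which 30 had a probe set naming them alone. Of the 30, 22 were at least 2-fold higher in EGFP+ cells, none at least 2-fold higher in EGFP- cells, and 8 were within 2-fold. Of these 8, Tgm1 counts only through a bound. The list median was 1.39, and 29 of the 30 lay above 0. The highest ratios were those of the polarity gene Crb3 (199.2 in EGFP+ and 56.6 in EGFP- cells, log2 ratio 1.82) and of St14, which encodes the membrane protease matriptase (269 in EGFP+ and 78.1 in EGFP- cells, log2 ratio 1.78). Prss8, which encodes the protease prostasin, followed with 341.1 in EGFP+ and 100.2 in EGFP- cells, and the tight junction gene Ocln had 274.9 in EGFP+ and 81.7 in EGFP- cells. The probe sets of Crb3 ranged from 0.77 to 1.82. Pkp3 and Marveld3, above 0 by their brightest probe sets, each had a dimmer one below 0, at -0.77 and -0.06. The lowest ratio was that of Jup, which encodes plakoglobin (42.8 in EGFP+ and 56.3 in EGFP- cells, log2 ratio -0.40) and is named here because it was the only 1 of the 30 below 0. Nearest to equality stood Prom2 (18 in EGFP+ and 15.6 in EGFP- cells). Tgm1, the transglutaminase of cornified epidermis and a Grhl target in skin, had 13 in EGFP+ and 1.1 in EGFP- cells. With the EGFP- value at the floor, Tgm1 was at least 1.05-fold higher in EGFP+ cells and is not shown to lie within 2-fold. The marker sums of mesenchyme, blood and hindbrain given above run the opposite way, and their part in the effector ratios was not tested.

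Set against this effector median, the genes of the set stood at unlike distances. The effector genes themselves ranged from -0.40 to 1.82, and of the measured genes of the set only Grhl3 lay outside that range. The distances below therefore refer to the median and do not set genes apart from the effector list. Esrp1, Esrp2 and Ovol2 differed from it by 0.02, -0.03 and 0.05 on the log2 scale, and Grhl2 by -0.18, all less than the SD between probe sets at their signals. Of these, Esrp1 stayed within that SD in the 8 other settings tried that have an effector median. Grhl2 differed by -0.57 with the median over probe sets and passed its SD of 0.25 in 3 further settings, with differences from -0.27 to -0.26. With the pseudocount, Esrp2 differed by -0.43 and Ovol2 by -0.44, just past their SD of 0.41, and with the 60th percentile floor by -1.17 and -1.40, where both are bounds. Grhl1 differed by -0.68, Klf5 by -0.96, Ovol1 by -1.06, Elf3 by -1.40 and Grhl3 by -2.12, where the values of Ovol1 and Grhl3 are bounds. Grhl1, Elf3 and Klf5 were above the floor in each library, and their differences exceed the SD between probe sets at their signal, 0.41 for Grhl1 and 0.33 for Elf3 and Klf5.

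**Figure D3:**
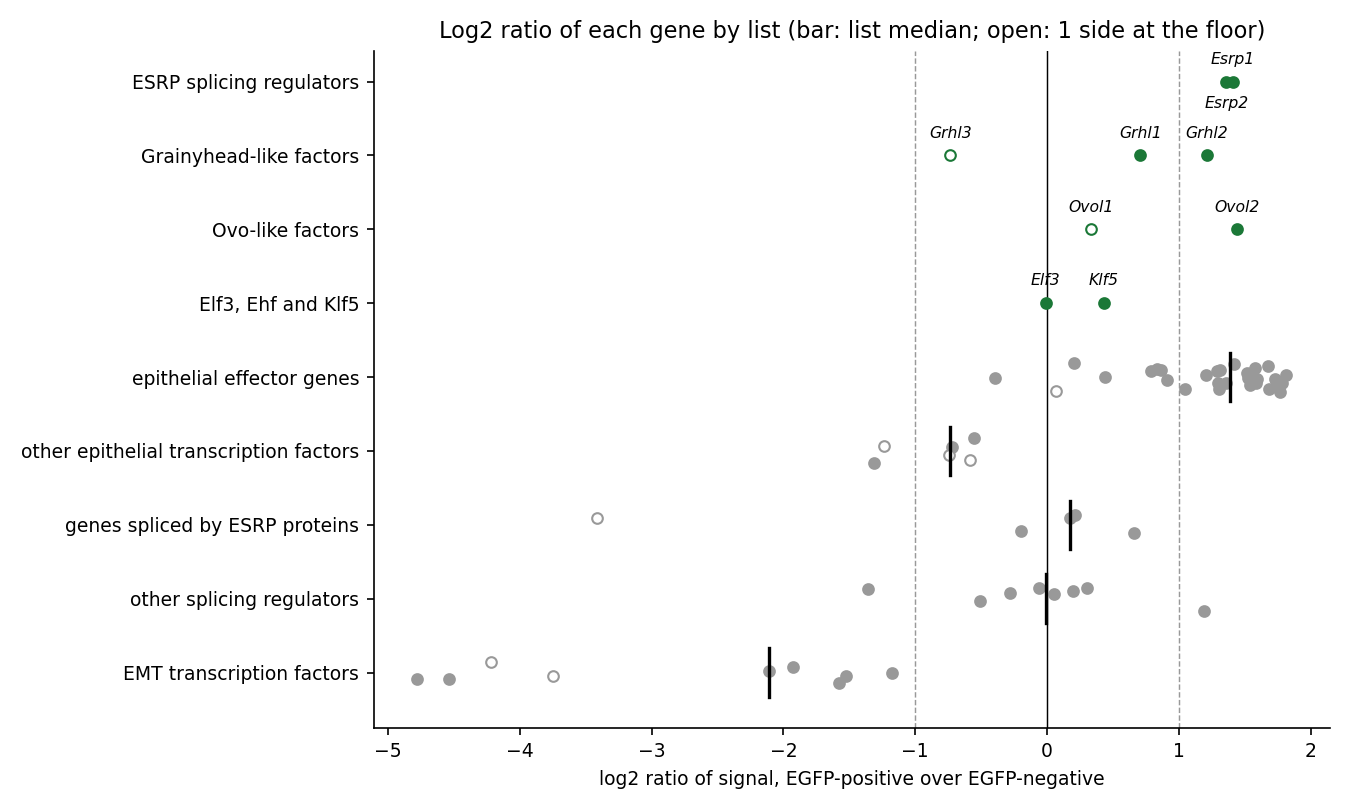
Log2 ratio of signal, EGFP+ over EGFP-, of each measured gene in the set (green, by family) and in 5 related lists (grey, black bar for the list median); open circles have 1 side at the floor and dashed lines mark 2-fold. Effector genes centre on 1.39 and EMT transcription factors on -2.11, with no EMT factor inside the dashed lines.

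The effector genes also share promoter letters. Of 22 effector genes with a RefSeq window, 16 hold CACCTG, 72.7%, against 22.6% of all genes. All 16 were at least 2-fold higher in EGFP+ cells, with a median log2 ratio of 1.53. Of the 6 without CACCTG, 1 was, with a median of 0.32. The ratio of Tgm1, 1 of these 6, is a bound, so their count and median are minima. Signals in EGFP+ cells ran from 13 (Tgm1) to 327.5 (Spint1) among the 6. Among the 16 they ran from 54.6 (Tjp3) to 1664.5 (Spint2). The part of signal level in this contrast was not tested. Base composition differs too, with a median GC content of 61.2% in effector windows and 52.7% in all windows. Among windows of 60% GC or more the hexamer stands in 12 of 17 effector windows (70.6%) and in 20.5% of all windows. Over all measured genes with a window, it stands in 119 of 291 genes at least 2-fold higher in EGFP+ cells (40.9%), 21.5% of genes within 2-fold, and 146 of 771 genes at least 2-fold higher in EGFP- cells (18.9%). Without the effector genes the first share was 37.6%. The list was drawn from well-known epithelial genes, some of them studied as Zeb or Snai targets, so it is no independent sample of promoters.

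In all, 11 motifs were searched on both strands, and CACCTG was singled out after its counts were seen. The Grainyhead site AACCGGTT was in no effector window and in 0.174% of all genes, and its shortened form ACCGGTT in no effector window and in 1.17% of all genes. The open form AACNNGTT was in 2 of the 22 (Cgn and Rab25, against 4.77% of all genes), and ACCAGTT in 1 of the 22 (3.42%). The Ovo-like letters CCGTTA were in 1 of 22 (3.15%), the Ets letters GGAAGT in 6 (26.5%) and CCGGAAG in 4 (9.93%). The Klf letters CACCC were in 19 (59.8%), the GC box GGGCGG in 17 (38.2%), and CACGTG, another E-box, in 4 (8.09%). ACCGGTT lies within AACCGGTT, which is also a case of AACNNGTT, and CCGGAAG and GGAAGT can overlap. In the windows of Grhl1, Ovol2, Grhl3 and Elf3, no form of the Grainyhead site and no CCGTTA was found, and each of the 4 genes holds CACCC. Windows round the E-boxes of Ocln and Crb3, which have among the highest effector ratios, and of Rab25, chosen afterwards because it holds both an E-box and an open Grainyhead form, are printed with the motif in capitals. Ocln has 2 such positions and Crb3 has 4, of which 1 each is printed, chosen after the sequences were seen and for Crb3 because CCGTTA lies beside it. A further CAGGTG in the first Rab25 window is left in lower case.
Ocln, E-box, chr13:100552541-100552586, minus strand: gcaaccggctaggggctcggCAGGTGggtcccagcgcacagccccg
Crb3, E-box, chr17:57062118-57062163, plus strand: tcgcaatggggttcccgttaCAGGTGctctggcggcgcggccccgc
Rab25, E-box, chr3:88548318-88548363, minus strand: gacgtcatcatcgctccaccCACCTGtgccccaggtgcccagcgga
Rab25, Grainyhead form, chr3:88548354-88548401, minus strand: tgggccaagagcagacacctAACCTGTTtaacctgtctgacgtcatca

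Transcription factors that oppose the epithelial state ran the other way. All 9 measured EMT factors were at least 2-fold higher in EGFP- cells, with a median log2 ratio of -2.11. Zeb1, the target of Ovol2 repression, had 164 in EGFP+ and 470.8 in EGFP- cells, a log2 ratio of -1.52, and Zeb2 had 39.4 in EGFP+ and 89.1 in EGFP- cells, a log2 ratio of -1.18. Their 3 and 4 measured probe sets ranged from -1.79 to -0.94 and from -1.44 to -1.08. Prrx1, a regulator of mesenchyme, had 17.5 in EGFP+ and 479.9 in EGFP- cells, 27.4-fold higher in EGFP- cells. Twist1 had 11.5 in EGFP+ and 266.5 in EGFP- cells, the first below the highest bacterial control. Both Twist2 and Foxc2 were at the floor in EGFP+ cells, and their signals in EGFP- cells were higher by at least 18.7-fold for Twist2 and 13.5-fold for Foxc2. Zeb2 and Zeb1 had the ratios nearest to 0 of the 9, and both lay above the floor in EGFP+ cells. Prrx1 and Twist1 also stand in the list of mesenchyme markers. The marker sums of mesenchyme and of neural crest given above run the same way, and the part of such cells in the EMT factor ratios was not tested.

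Further epithelial transcription factors did not follow Esrp1 and Grhl2. Of 8 with a probe set, 6 were measured, all with a log2 ratio below 0 and 2 at least 2-fold higher in EGFP- cells, and the list median was -0.73. Tfap2a, an AP-2 factor of ectoderm and neural crest, had 26.9 in EGFP+ and 66.9 in EGFP- cells, with probe sets from -2.04 to -0.43. Tfap2c was at the floor in EGFP+ cells (6.2, against 24.5 in EGFP- cells), at least 2.36-fold higher in EGFP- cells. Lmo4, a LIM-only partner of Grhl3 in epidermis, had 280.7 in EGFP+ and 463.4 in EGFP- cells. Trp63, the master factor of stratified epithelium, was at 10 in EGFP+ and 17.4 in EGFP- cells, the first at the floor. Only 1 of the 4 probe sets of Trp63 and 1 of the 3 of Tfap2c were measured. The gut and airway factor Foxa1 was at the floor in EGFP+ cells, and Klf4 had 52 in EGFP+ and 76.4 in EGFP- cells. A second probe set of Klf4 went the other way, with a log2 ratio of 0.18. The part of other cells in the ratios of this list was not tested.

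Genes whose splicing ESRP proteins steer were read by probe set signal only, since no probe set was assigned to a splice form here. None of the 5 was at least 2-fold higher in EGFP+ cells, and the list median was 0.18. Fgfr2 had 181.1 in EGFP+ and 207.2 in EGFP- cells, a log2 ratio of -0.19. Ctnnd1, which encodes p120-catenin, had 218.3 in EGFP+ and 193 in EGFP- cells, with probe sets from -0.34 to 0.18. Enah, an actin regulator, had 2570 in EGFP+ and 1624 in EGFP- cells, with each of its 6 probe sets between 0.43 and 1.11. Cd44, the hyaluronan receptor gene, was at the floor in EGFP+ cells and at least 10.6-fold higher in EGFP- cells. Of 8 other splicing regulators, Rbm47, an RNA-binding protein of epithelia, was at least 2-fold higher in EGFP+ cells (28.6 against 12.5 in EGFP- cells, the last value next to the floor). Its other measured probe set stood at a log2 ratio of 0.80, and the remaining one was at the floor in both libraries. Mbnl1 was at least 2-fold higher in EGFP- cells (242 in EGFP+ and 620.9 in EGFP- cells), with a second probe set at -0.37. Rbfox2 and Celf1 were near equality, with log2 ratios of 0.05 and -0.06 for the brightest probe set. Other probe sets reached down to -0.81 for Rbfox2 and up to 0.64 for Celf1. The list median was -0.0054.

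Markers listed for other epithelia near the otocyst were often at the floor. Of the 10 for surface ectoderm, 8 were at the floor in EGFP+ and 5 in EGFP- cells. Of the 6 for pharyngeal endoderm, 4 were at the floor in EGFP+ and 1 in EGFP- cells. These few markers do not show how many such cells were present. The 10 surface ectoderm markers summed to 118.5 in EGFP+ and 192.8 in EGFP- cells. Of these, 5 were measured, all with a log2 ratio below 0, and Krt15 was at least 2-fold higher in EGFP- cells (0.6 in EGFP+ and 47.4 in EGFP- cells). Perp, a desmosomal gene, was level at 67.3 in EGFP+ and 67.7 in EGFP- cells. The pharyngeal endoderm markers summed to 61.7 in EGFP+ and 144.9 in EGFP- cells, with Sox17 and Shh at least 2-fold higher in EGFP- cells. A second probe set of Sox17 stood at a log2 ratio of -0.85. Of the 5 measured, 1 lay above 0, Pax9, with 17 in EGFP+ and 12.8 in EGFP- cells, the last value next to the floor. These sums stand beside the values of Grhl3, Elf3, Trp63 and Tfap2c, and the part of such cells in them was not tested.

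The size of the split between directions changed with the scaling, and under each scaling below more genes were at least 2-fold higher in EGFP- cells. Over all genes, 388 were at least 2-fold higher in EGFP+ and 1019 in EGFP- cells. With quantile-normalized signals the split was 503 in EGFP+ and 823 in EGFP- cells. It was 225 in EGFP+ and 1442 in EGFP- cells with hybridisation controls as the zero point, which lie 0.25 higher in the EGFP+ library, and 18 in EGFP+ and 11430 in EGFP- cells after centring on the effector genes, a shift of 1.39. Relative to the hybridisation controls, Esrp1, Esrp2 and Ovol2 stayed past 2-fold, with log2 ratios of 1.16, 1.11 and 1.19, and Grhl2 was at 0.96. Elf3 stood at 0.10 with quantile-normalized signals and at -0.26 relative to the controls, and Grhl3 was below 0 in all settings in which it was measured.

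**Figure D4:**
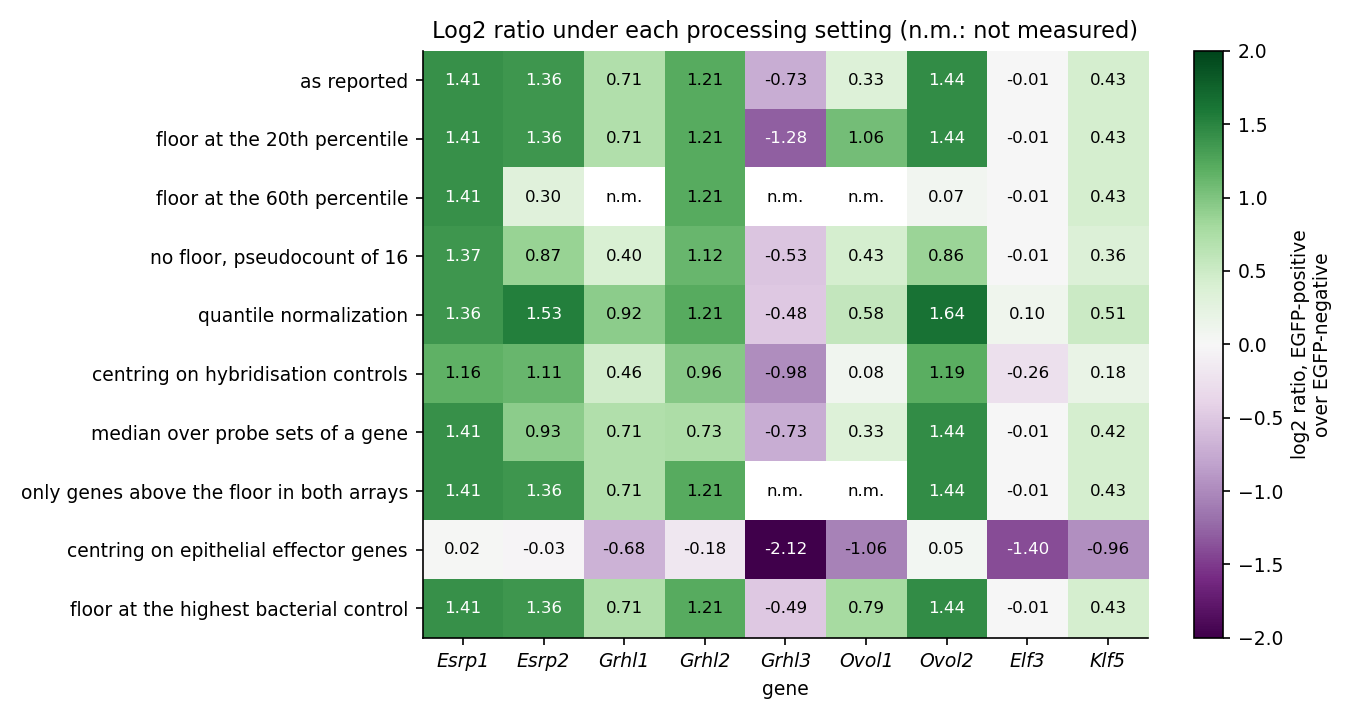
Log2 ratio, EGFP+ over EGFP-, of the 9 measured genes (columns) as reported and under 9 other settings (rows); green is higher in EGFP+ cells, purple higher in EGFP- cells, and n.m. stands for not measured. Esrp1 keeps 1.16 to 1.41 in every row but that centred on the effector genes, where it is 0.02, while Ovol2 is at 0.07 with the floor at the 60th percentile and at 0.05 in that centred row.

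With 2 arrays, the likeness of another gene to Esrp1 can be given only as the distance between the log2 signals of both arrays, which takes in each probe set's own brightness. Among 11681 other genes above the floor in both libraries, 5 lay within 0.25. The nearest were Prxl2a (921 in EGFP+ and 372.8 in EGFP- cells, distance 0.09), Cuedc2 (906.1 in EGFP+ and 390.5 in EGFP- cells, distance 0.14) and Sox10, an otic and neural crest transcription factor (889.3 in EGFP+ and 403.7 in EGFP- cells, distance 0.19).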

How the data were processed

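Total RNA of 2 sorted populations was measured on 2 Affymetrix arrays, 1 per population. The authors deposited 1 intensity per probe set for 45101 probe sets, which is a linear MAS5 signal (MAS5 5.0, per the submitters' processing notes). With 2% trimmed at either end, both columns averaged 100.0. The scaling target and detection calls are not given in the sources used here, and the number of arrays limits the precision.

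Probe sets were named from the platform annotation, with current symbols by gene identifier from the GRCm38.p6 RefSeq table. A single gene was given for 34958 probe sets, several for 932 and none here for 9211. Promoter windows come from RefSeq on GRCm38.p6. Of 139 entries in 5 related and 9 marker lists, 9 had no probe set naming the gene alone. The members and lists were chosen with earlier results of these data known.

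Named genes comprised all members, up to 4 genes of each related list with the largest and 2 with the smallest absolute log2 ratio, up to 2 bright markers per list and the 3 genes nearest to Esrp1. Ratios were computed with pandas 2.3.3 and numpy 2.4.6 in Python 3.11.15. The alternatives were floors at the 20th and 60th percentiles, a pseudocount of 16, quantile normalization, centring on hybridisation controls, the median over probe sets, and only genes above both floors. Centring on effector genes and a floor at the highest bacterial control were added after seeing the data.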

Additional observations from a re-analysis of the deposited data

How the results depend on the processing

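Against 4 as reported, 2 genes of the set were at least 2-fold higher in EGFP+ cells with a 60th percentile floor and with a pseudocount of 16 (Esrp1 and Grhl2) and with the median over probe sets (Esrp1 and Ovol2), and 0 after centring on effector genes. Against 0, 2 were at least 2-fold higher in EGFP- cells with a 20th percentile floor (Grhl3 and Ehf) and 3 after centring on effector genes (Grhl3, Ovol1 and Elf3), where Ovol1 counts only through its bound, at least -1.06, and so is not shown to lie past 2-fold. The median of the measured genes of the set, 0.71, was 0.37 with a 60th percentile floor, 1.21 over genes above both floors and -0.68 after centring on effector genes, where the EMT factors stood at -3.50, Esrp2 at -0.029 and Grhl2 at -0.18. That centring subtracts 1.39 from every log2 ratio, and higher floors remove dim genes by construction. Effector genes kept a median of 1.14 to 1.48 in the other 8 settings, and EMT factors, leaving out that centring, -2.35 to -1.89. Over all genes, beside 388 and 1019 as reported, 711 had at least 2-fold higher signals in EGFP+ and 1954 in EGFP- cells with a 20th percentile floor, 237 and 478 at the 60th, 238 and 647 with the pseudocount, 325 and 632 above both floors, 225 and 1442 relative to hybridisation controls and 18 and 11430 after centring on effector genes. No paired analysis was possible because each population has 1 array, and for the same reason no array could be left out. Signal over background limits Grhl1, Grhl3, Ovol1, Ovol2, Ehf and Esrp2 most.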
